A study of Mus musculus with 6 samples.

Results

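Classical monocytes marked by Chil3 and F13a1 were examined in liver non-parenchymal cells, the liver cells other than hepatocytes, of mice with nonalcoholic steatohepatitis (NASH). Members were chosen by measured values: a cell was a member if it held at least 2 unique molecular identifiers (UMIs, 1 per captured transcript) of Chil3 and F13a1 together and at least 3 of Lyz2. It also had to hold at most 5 of C1qa, C1qb and C1qc, at most 1 of Ngp and Camp, and at most 1 of Cd300e, Ace and Treml4. These limits leave out C1q-bearing macrophages, neutrophil precursors and patrolling monocytes. Of the 27544 cells with under 5000 genes and under 5% mitochondrial UMIs, 859 were members, out of 33168 barcodes in all. All animals were male C57BL/6J mice, 8 weeks old at the start, that received a high-fat diet for 24 weeks. Over the last 8 weeks the animals received vehicle (DMSO) or 10 mg/kg of ginkgetin daily, both intragastrically. Ginkgetin is a biflavone of plant origin. Each group had 3 libraries made with the 10x Genomics Chromium system, with 13128697 to 61796882 UMIs per library. The methods give n = 3 per group for cells isolated from mice and do not say whether a library is 1 mouse or a pool, so p-values measure the spread between libraries, which may be technical. Replicate 3 of both groups stood apart: 2253 gene names had UMIs only in these libraries and 946 only in replicates 1 and 2. Some are names of the same gene, such as Gnb2l1 (123142 UMIs, replicates 1 and 2 only) and Rack1 (128058 UMIs, replicate 3 only), so these counts are in part a matter of naming. Pairs of libraries of replicates 1 and 2 shared 23 to 85 cell barcodes and the libraries of replicate 3 shared 10, against 0 or 1 in the other pairs. In ginkgetin replicate 2, 28 of 77 members (36.4%) held 4 or more UMIs of T, NK, B, plasma, endothelial or stellate cell markers. In ginkgetin replicate 3 these were 7 of 46 members (15.2%). They were 0% of members in ginkgetin replicate 1 and 1.27%, 2.63% and 1.72% in vehicle replicates 1, 2 and 3.

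Classical monocytes leave the bone marrow through the chemokine receptor Ccr2 and enter inflamed tissue, where they can become macrophages. In the fatty liver, macrophages derived from them can take on a lipid-associated state with Trem2, Gpnmb, Spp1 and Fabp5, genes of lipid handling and lysosomes. Activated monocytes also draw on glycolysis, the pathway from glucose to pyruvate and lactate.

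The label was checked against genes that the rule did not use. Levels are given as CPM, a gene's UMIs in the summed cells of a library scaled to a common total of UMIs. Averaged over libraries, members held 733 CPM of Ly6c2, 893 of Ccr2 and 1057 of Fn1. Patrolling monocytes held 139, 400 and 136 CPM of these genes, and macrophages with at least 10 C1q UMIs (C1q-high macrophages below) held 15.2, 163 and 59.1 CPM. Ly6g, which defines neutrophils, was at 0 in 5 of the 6 libraries. These levels describe the chosen cells and are not a test of the rule. Cells with 2 UMIs of Chil3 and F13a1, just inside the limit, numbered 142 and had 731 CPM of Ccr2 and 465 of Ly6c2. The 176 cells with 1 UMI, just outside it, had 669 and 352 CPM. On the C1q side, 24 members held 4 or 5 C1q UMIs, all in the vehicle group, and 5 cells held 6 or 7.

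Upstream sequences are shown for 3 of the glycolytic and lysosomal genes that were called lower with the replicate block described below. Each is the 250 bases before a RefSeq transcription start (GRCm38.p6), 5′ to 3′ on the gene's strand. Capitals mark ACGTG, the core bound by hypoxia-inducible factors, or CACGTG, the E-box bound by the MiT family of lysosomal regulators, on either strand. ACGTG lies within CACGTG, so the searches overlap. For phosphoglycerate mutase 1 (chr19:41911621-41911870, plus strand) and lactate dehydrogenase A (chr7:46845554-46845803, plus strand), capitals mark ACGTG:
Pgam1: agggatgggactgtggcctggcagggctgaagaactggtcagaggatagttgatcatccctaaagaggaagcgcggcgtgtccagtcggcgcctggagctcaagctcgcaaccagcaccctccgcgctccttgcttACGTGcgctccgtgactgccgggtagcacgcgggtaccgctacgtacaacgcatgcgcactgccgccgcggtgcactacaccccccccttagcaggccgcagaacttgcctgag
Ldha: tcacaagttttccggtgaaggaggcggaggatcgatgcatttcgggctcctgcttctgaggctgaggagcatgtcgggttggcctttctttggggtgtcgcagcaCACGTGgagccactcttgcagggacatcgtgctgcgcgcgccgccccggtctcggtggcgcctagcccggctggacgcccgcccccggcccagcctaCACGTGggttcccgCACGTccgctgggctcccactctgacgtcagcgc
For the lysosomal protease legumain (chr12:102439093-102439342, minus strand), capitals mark CACGTG:
Lgmn: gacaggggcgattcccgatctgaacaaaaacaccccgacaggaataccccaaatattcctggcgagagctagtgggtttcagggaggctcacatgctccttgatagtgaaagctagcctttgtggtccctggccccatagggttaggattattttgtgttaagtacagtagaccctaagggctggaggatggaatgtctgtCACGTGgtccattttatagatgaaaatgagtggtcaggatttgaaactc
The Ldha and Lgmn windows are each 1 of 2 of their gene, and the window not shown held no match of the marked motif. Both shown windows were chosen for holding a match. The shown Ldha and Lgmn windows lie inside the span of the gene, downstream of its outermost start, and overlap 1 GENCODE transcript each and 0 exons. Both strands were searched for 5 motifs in the windows of 4 lists: glycolysis (20 windows), lipid-associated (19), immediate-early and heat shock (13) and monocyte identity (16). In that order ACGTG occurred in 45%, 26.3%, 30.8% and 18.8% of windows, against 16.6% of all 32851. CACGTG occurred in 5%, 15.8%, 7.69% and 0%, against 6.02%. GAANNTTC occurred in 5%, 0%, 23.1% and 12.5%, against 6.69%, and TTCNNGAA in 5%, 10.5%, 0% and 18.8%, against 7.17%. TGACTCA occurred in 5%, 10.5%, 0% and 0%, against 4.46%. Matches did not follow the calls. Among glycolytic genes called with the block, Tpi1 and Gapdh had no ACGTG, while Hk2, Hk3, Pgk1 and Slc2a1, not called, had it. Of the lipid-associated genes only Ctsd, Ctsl and Lgmn had CACGTG, and Ctsl was not called. A match describes letters in a window and is not a site.

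The first comparison asked whether ginkgetin altered the number of these cells. Classical monocytes made up 5.24%, 4.56% and 5.63% of kept cells in vehicle replicates 1, 2 and 3 (315, 152 and 233 cells). In ginkgetin replicates 1, 2 and 3 they made up 1.03%, 1.11% and 1.26% (36, 77 and 46 cells). Every vehicle library lay above every ginkgetin library. The exact 95% binomial intervals, which cover counting error only, ran from 3.87% to 6.38% over the vehicle libraries and from 0.723% to 1.68% over the ginkgetin libraries. The mean was 5.14% ± 0.544 (SD, n = 3) against 1.14% ± 0.118 (SD, n = 3), a ratio of 4.53 (two-sided exact permutation p = 0.1, the smallest that 3 libraries against 3 allow). Adjusted over 4 cell classes it remained 0.1. The difference was -3.82 percentage points within replicates 1 and 2 and -4.37 in replicate 3. The share of classical monocytes differed by -1.34 points among cells of 250 to 5000 UMIs, a range in which ginkgetin replicate 3 had 0 members. It differed by -2.6 points with every cell thinned to 1500 UMIs, and by -1.37 points (exact permutation p = 0.3) without members holding 2 or more UMIs of other types' markers, which leaves ginkgetin replicate 2 with 0.

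**Figure D1:**
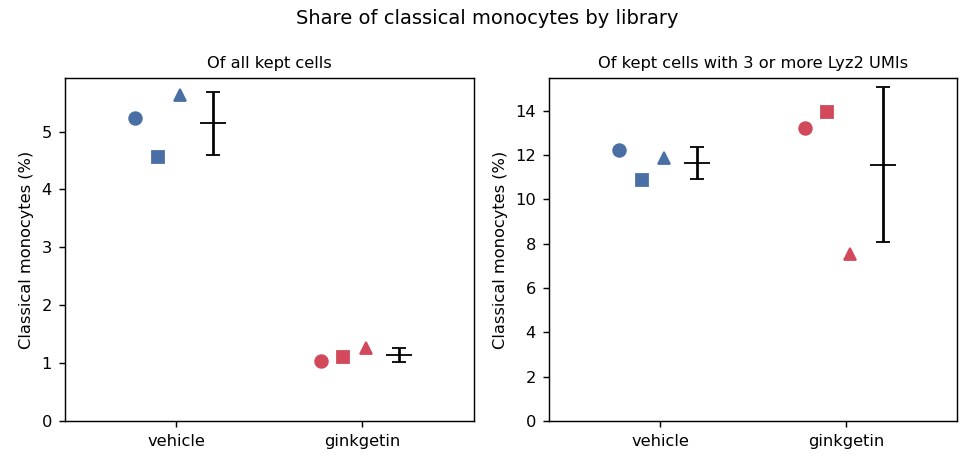
Classical monocytes as a percentage of all kept cells (left) and of kept cells with at least 3 Lyz2 UMIs (right); each point is 1 library, with circles, squares and triangles for replicates 1, 2 and 3, and the black mark is the mean with its SD. The groups are apart on the left (lowest vehicle library 4.56%, highest ginkgetin library 1.26%) and overlap on the right.

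The share depended on what it was counted against. Cells with at least 3 UMIs of Lyz2, the lysozyme of myeloid cells, were 42.7%, 41.9% and 47.5% of kept cells in the vehicle libraries and 7.79%, 7.98% and 16.7% in the ginkgetin libraries. Among Lyz2 cells, classical monocytes were 12.2%, 10.9% and 11.9% in the vehicle libraries and 13.2%, 13.9% and 7.54% in the ginkgetin libraries. These values overlapped, and their means differed by -0.0794 percentage points (exact permutation p = 1). Classical monocytes per 100 patrolling monocytes were 119 ± 20.5 against 97.2 ± 43.2 (SD, n = 3 each, exact permutation p = 0.5). Patrolling monocytes and C1q-high macrophages were also a smaller part of kept cells in the ginkgetin libraries (4.46% against 1.47%, and 24.5% against 5.43%).

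Cells that held the monocyte pair together with more than 5 C1q UMIs, which the rule leaves out, numbered 59, 29 and 110 in the vehicle libraries and 3, 5 and 5 in the ginkgetin libraries. They were 15.8%, 16.0% and 32.1% of the cells with the pair in the vehicle libraries. In the ginkgetin libraries they were 7.69%, 6.10% and 9.80%, with no overlap between groups. Inside the limit, members with no C1q UMI were 38.4%, 38.2% and 54.5% of vehicle members and 77.8%, 83.1% and 87.0% of ginkgetin members. The rule used Chil3, F13a1 and C1q transcripts, so all these shares are a description, with no test. C1q UMIs were also found in T cells, where C1qb averaged 60.0 CPM in the vehicle and 13 CPM in the ginkgetin libraries. The part of free RNA in the difference was not tested.

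Gene expression was then compared on UMIs summed over the members of each library. Members had medians of 6838, 6371.5 and 9377 UMIs in the vehicle libraries and 5322.5, 5086 and 10249.5 in the ginkgetin libraries, and no member barcode was shared between libraries. With group as the only term, edgeR's quasi-likelihood test called 0 of 5950 genes (0%) at an adjusted p under 0.05 and a fold over 2. The lowest adjusted p was 0.0796, and 875 genes (14.7%) had an unadjusted p under 0.05, with 7.46% higher and 7.24% lower. DESeq2 called 81 genes and limma-voom 0. Libraries with the same replicate number deviated together, so the fit with the replicate number as a block is given beside each result. It called 157 genes (2.64%), 68 higher (1.14%) and 89 lower (1.5%) with ginkgetin. A block of only 2 levels, replicate 3 against replicates 1 and 2, called 134 genes (2.25%), of which 1.08% of all genes were higher and 1.18% lower. The fits shared 128 genes, 81.5% of the first set and 95.5% of the other. In C1q-high macrophages the fit without a block called 4.01% of 9919 genes, and in T cells 0 of 9969 (0%). Below, "called with the block" refers to this fit, and log2 fold changes are ginkgetin minus vehicle from the fit without it unless stated. Values with a library left out are from that fit too. Values of groups that did not overlap were found for 8.15% of genes in the higher and 12.6% in the lower direction.

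Of 18 monocyte identity genes tested, 2 (Vcan and Hp) were called lower with the block (against 1.5% of all genes) and 0 without it. Values of 6 did not overlap and were lower (against 12.6% of all genes). Ly6c2, a surface antigen of this subset, was at 750, 632 and 849 CPM in the vehicle libraries and 981, 493 and 691 CPM in the ginkgetin libraries (log2 fold change -0.01 ± 0.32, SE). Ccr2 was at 715, 683 and 982 CPM against 741, 778 and 1457 CPM (0.31 ± 0.28). The values of both genes overlapped. Plac8 (-0.41), Ms4a4c (-0.60), the fibronectin gene Fn1 (0.82) and Clec4e (-1.09), a receptor for damaged cells, were not called in either fit. Their adjusted p values without the block ran from 0.29 for Clec4e to 0.74 for Plac8. Fn1 had an adjusted p of 0.047 with the block, at a fold under 2. The direction for Ly6c2 turned under 4 of the alternatives and under 4 of the 6 that left out a library.

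**Figure D2:**
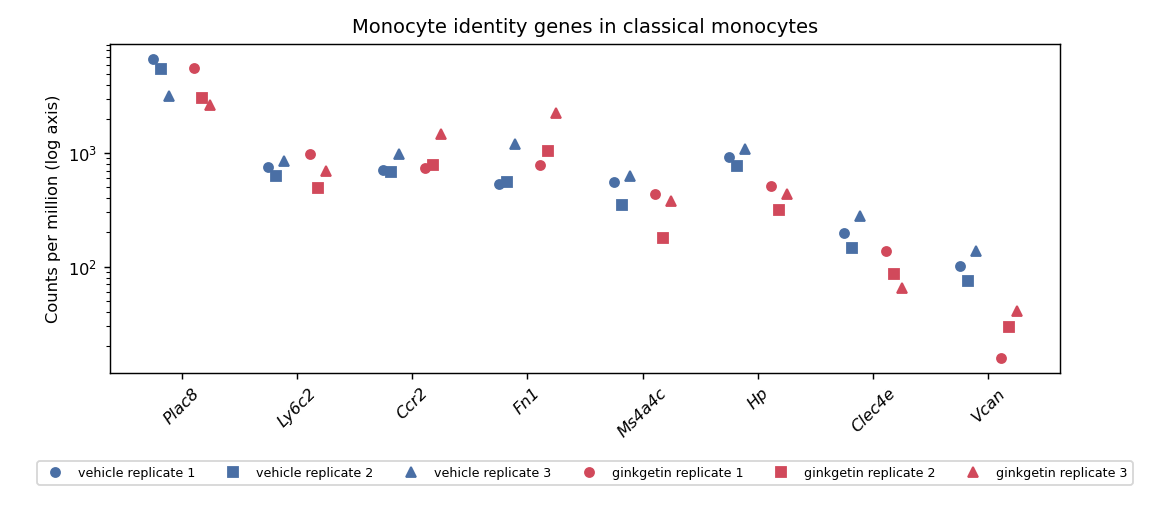
Levels of monocyte identity genes in summed classical monocytes, in CPM on a log axis; blue is vehicle and red ginkgetin, with circles, squares and triangles for replicates 1, 2 and 3. Ly6c2 and Ccr2 overlap between the groups, while Vcan, Hp and Clec4e do not.

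Versican (Vcan), an extracellular matrix proteoglycan made by these cells, was at 101, 74.1 and 138 CPM in the vehicle libraries and 15.7, 29.4 and 40.5 CPM in the ginkgetin libraries. Its log2 fold change was -1.78 ± 0.31 (edgeR adjusted p = 0.13, with the block 0.0061). Haptoglobin (Hp), which binds free haemoglobin, was at 913, 772 and 1091 CPM against 511, 312 and 432 CPM (-1.12 ± 0.29, with the block adjusted p = 0.017). Hp was also detected in T cells at 35.6 and 4.69 CPM. Of the 18 identity genes, 13 had a lower and 5 a higher value. The list median was -0.31, beside 0.02 over all genes.

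Glycolytic enzymes mostly had lower values in the ginkgetin libraries. Of 14 listed genes 13 had a negative and 1 (Hk2, 0.05) a positive log2 fold change, with a median of -1.09. None was called without the block, and 6 were called with it, all lower: Tpi1, Pgam1, Gapdh, Pkm, Ldha and Aldoa. Over all genes the block called 1.5% in that direction. Pgam1 (chromosome 19, 41911871 to 41918665, GRCm38.p6), whose upstream sequence is shown above, was at 377, 334 and 426 CPM in the vehicle libraries. In the ginkgetin libraries it was at 120, 95.7 and 148 CPM, below every vehicle library (-1.64 ± 0.24, adjusted p = 0.11, with the block 0.0022). Triosephosphate isomerase, Tpi1, was at 333, 346 and 220 CPM against 93.9, 63.8 and 60.8 CPM (-2.05 ± 0.35, with the block adjusted p = 0.0013). Ldha, which makes lactate, was at 620, 577 and 403 CPM against 250, 209 and 122 CPM (-1.43 ± 0.40, with the block adjusted p = 0.0052). Pkm and Gapdh had log2 fold changes of -1.21 and -1.23. Hif1a, the regulator of many of these genes, was at 78.5, 60.1 and 116 CPM against 62.6, 73.6 and 77.0 CPM, and overlapped (-0.23 ± 0.26).

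T cells of the same libraries were set beside the monocytes, in a comparison added after seeing the data. Their glycolysis median was -0.54 over the 13 genes tested in both. The group difference of Ldha in monocytes minus that in T cells was -1.13 ± 0.20 on the log2 scale (edgeR interaction, adjusted p = 0.011). For Pgam1 this was -0.97 ± 0.20 (adjusted p = 0.025), for Tpi1 -1.18 (0.028), for Gapdh -0.76 (0.018) and for Pkm -0.79 (0.046). Trac, one of the genes that chose the T cells, had UMIs in replicate 3 only, and without it 850 and 769 of 859 and 772 T cells remained in vehicle and ginkgetin replicate 3. Pkm then did not pass (adjusted p = 0.051). Aldoa gave -0.33 (0.58). The interaction called 58 of 9848 genes (0.589%), of which 30 were negative (0.305%). Against C1q-high macrophages, none of these 6 enzymes had an adjusted p under 0.05; Pgam1 gave -0.22 ± 0.25 and Ldha -0.20 ± 0.27.

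**Figure D3:**
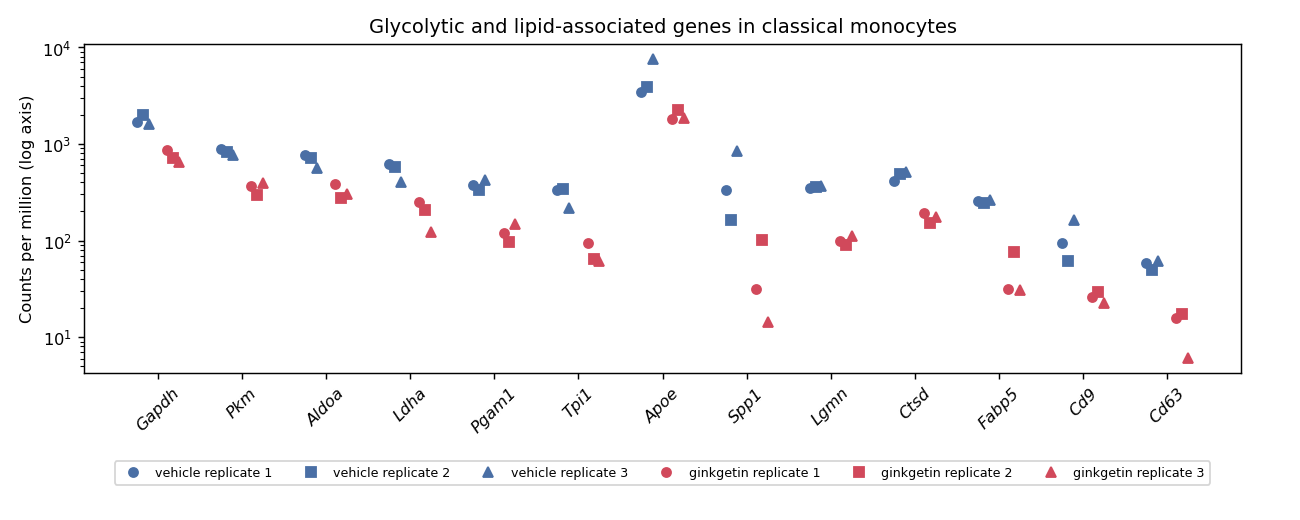
Levels of 6 glycolytic genes (left) and 7 lipid-associated genes (right) in summed classical monocytes, in CPM on a log axis; blue is vehicle and red ginkgetin, with circles, squares and triangles for replicates 1, 2 and 3. For each gene all ginkgetin libraries lie below all vehicle libraries, for example 90.8 to 111 CPM against 347 to 365 CPM for Lgmn.

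Genes of the lipid-associated macrophage state also mostly had lower values. Of 17 genes tested, 16 had a negative log2 fold change, with a median of -1.27. The block called 9, all lower, against 1.5% of all genes: Apoe, Cd63, Cd9, Ctsd, Fabp5, Gpnmb, Lgmn, Lpl and Spp1. Values of 14 genes did not overlap and were lower, against 12.6% of all genes. Several of those called, such as Lgmn and Ctsd, are general lysosomal genes. With the 2-level block Apoe, Lpl and Spp1 were not called (adjusted p = 0.054, 0.12 and 0.066). Lgmn (chromosome 12, 102394082 to 102439728) was at 347, 356 and 365 CPM in the vehicle libraries and 99.1, 90.8 and 111 CPM in the ginkgetin libraries. The values within each group lay close together, and the log2 fold change was -1.82 ± 0.23 (adjusted p = 0.08, with the block 0.0013). With each library left out in turn it stayed between -1.92 and -1.78. Ctsd was at 413, 491 and 517 CPM against 193, 152 and 174 CPM (-1.43 ± 0.26, with the block adjusted p = 0.0075). Fabp5, a fatty acid carrier, was at 257, 246 and 264 CPM against 31.3, 76.1 and 30.4 CPM (-2.41 ± 0.41, with the block adjusted p = 0.0013), and was -3.13 without ginkgetin replicate 2.

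Gpnmb, a glycoprotein of lipid-laden macrophages, was at 26.2, 43.1 and 102 CPM in the vehicle libraries (58, 43 and 227 UMIs). No Gpnmb UMI was found in the 159 ginkgetin members, and against a floor of 3 counts over the group it was at least 20.8-fold lower. This bound was 12.6-fold without vehicle replicate 3, which holds most of the UMIs, 13.1-fold without ginkgetin replicate 2 and 11.4-fold without ginkgetin replicate 3. Spp1, osteopontin, was at 335, 164 and 848 CPM against 31.3, 101 and 14.2 CPM (-3.07 ± 0.82, with the block adjusted p = 0.038). Its log2 fold change was -2.31 without vehicle replicate 3 and -4.39 without ginkgetin replicate 2. Apoe was at 3431, 3866 and 7610 CPM against 1826, 2257 and 1870 CPM (-1.27 ± 0.36, with the block adjusted p = 0.04). In T cells, which should lack it, Apoe averaged 752 and 284 CPM. Spp1 averaged 176 and 72.6 CPM there, and the part of free RNA in both differences was not tested. Lgmn had T-cell means of 27.3 and 30.1 CPM, and its group difference in monocytes minus that in T cells was -2.0 ± 0.35 (edgeR interaction, adjusted p = 0.011). For Fabp5 this was -2.0 ± 0.27 (0.0018) and for Ctsd -1.25 ± 0.23 (0.013). The other 6 genes called with the block did not pass this test: Apoe (adjusted p = 0.73), Lpl (0.36), Cd63 (0.2), Spp1 (0.15), Cd9 (0.067) and Gpnmb (0.058). Apoe differed in T cells by -1.32 and Lpl by -2.26.

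Trem2, the lipid receptor of this state, was at 130, 189 and 201 CPM in the vehicle libraries and 52.2, 140 and 56.7 CPM in the ginkgetin libraries. The groups overlapped (-1.0 ± 0.43, adjusted p = 0.34, with the block 0.052), and the value was -1.74 without ginkgetin replicate 2. In T cells Trem2 averaged 11.7 and 0.628 CPM, and Gpnmb 8.79 and 3.85 CPM. The group difference of Trem2 in monocytes minus that in T cells was 2.93 ± 0.48 (edgeR interaction, adjusted p = 0.007), with a T-cell log2 fold change of -4.24. Members without any C1q UMI gave similar orders: Apoe was at 3190, 4794 and 7000 CPM against 2041, 2298 and 2113 CPM. Their Gpnmb was at 34.1, 20.6 and 85.4 CPM against 0 in all 3 ginkgetin libraries. Cd9 in these cells was at 98.7, 58.7 and 97.9 CPM against 26.7, 34.1 and 22.3 CPM.

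**Figure D4:**
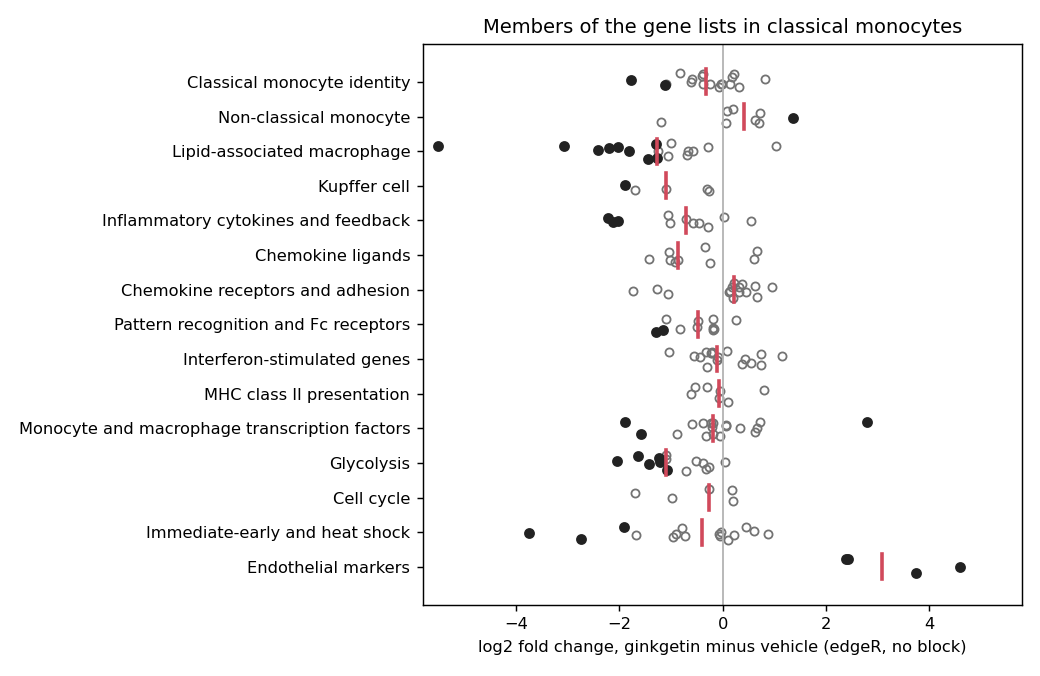
Log2 fold change (ginkgetin minus vehicle, edgeR without the block) of each tested member of 15 gene lists in classical monocytes; each circle is a gene, filled if called with the replicate block, and the red bar is the list median. Gpnmb is drawn at the left edge of the range. The glycolysis and lipid-associated lists lie mostly below 0 (medians -1.09 and -1.27). The 4 endothelial genes lie above it, but they reached the filter for low counts only in the ginkgetin libraries.

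Among inflammatory genes, the block called Il1rn, Osm and Tnf of 11 tested in the cytokine list, all lower, against 1.5% of all genes. With the 2-level block Osm and Tnf were not called (adjusted p = 0.11 and 0.071). Tnf was at 19.4, 28.0 and 90.7 CPM in the vehicle libraries and 20.9, 7.36 and 8.10 CPM in the ginkgetin libraries, and overlapped (-2.11 ± 0.75, adjusted p = 0.29, with the block 0.047). Without vehicle replicate 3 the log2 fold change of Tnf was -1.21. Il1rn, the decoy ligand that blocks interleukin-1 signalling, was at 106, 133 and 145 CPM against 62.6, 27.0 and 4.05 CPM (-2.22 ± 0.68, with the block adjusted p = 0.023). Its value was -3.11 without ginkgetin replicate 1 and -1.52 without ginkgetin replicate 3. Il1b was at 220, 316 and 978 CPM against 433, 309 and 308 CPM (-0.45 ± 0.52), with 1 high vehicle library. Without that library the Il1b value was 0.36. Among pattern recognition and Fc receptors, the block called the lectin gene Clec4d (-1.29) and the high-affinity IgG receptor Fcgr1 (-1.14) of 11 tested. Over all genes it called 1.5% in that direction. Fcgr1 was not called with the 2-level block (adjusted p = 0.054). C5ar1, the complement C5a receptor, was at 90.7, 101 and 77.6 CPM against 15.7, 19.6 and 12.2 CPM (-2.52 ± 0.33, adjusted p = 0.08, with the block 0.0013).

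In the lists of chemokine ligands, chemokine receptors, interferon-stimulated genes and MHC class II genes, no member was called in either fit. Their list medians were -0.86 (9 tested), 0.23 (15), -0.11 (17) and -0.08 (7). Outside these lists, and named after their values were seen, the chemokine ligand Ccl5 and the interferon-stimulated gene Rtp4 were called with the block. Ccl5, which T and NK cells make in quantity, was at 55.1, 48.1 and 8.57 CPM in the vehicle libraries and 412, 209 and 101 CPM in the ginkgetin libraries (2.72 ± 0.78, with the block adjusted p = 3.6e-04). In T cells it averaged 16097 and 9128 CPM. The summed T and NK cell markers were also higher in the ginkgetin members, with values given below, and their part in the Ccl5 difference was not tested. Rtp4 was at 164, 145 and 105 CPM against 62.6, 58.9 and 72.9 CPM (-1.09, with the block -1.02 and adjusted p = 0.04). In T cells its log2 fold change was also -1.02 (interaction adjusted p = 0.83). Interferon-stimulated genes of the list named by lowest p were Rsad2 (0.75), Xaf1 (-0.56) and Ifit1 (0.55). Ccl2, the ligand of Ccr2, was at 64.5, 94.2 and 89.8 CPM against 26.1, 12.3 and 81.0 CPM (-1.02 ± 0.49), and its value was -2.15 without ginkgetin replicate 3. Isg15 had a log2 fold change of -0.22, H2-Aa of -0.53 and Cd74 of -0.05. The values of Isg15 and Cd74 changed sign when single libraries were left out. The alpha-4 integrin gene Itga4, used in adhesion to vessels, was at 154, 134 and 234 CPM against 240, 258 and 523 CPM without overlap. Its fold stayed under 2 (0.96 ± 0.31, with the block adjusted p = 0.032), and its group difference was higher in monocytes than in T cells, by 1.32 ± 0.21 (adjusted p = 0.0068).

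Among transcription factors, of which 18 were tested, the block called 1 higher (Irf4) and 2 lower, Nr1h3 among them. Over all genes it called 1.14% higher and 1.5% lower. Nr1h3, the oxysterol receptor LXR-alpha, was at 53.7, 66.1 and 39.7 CPM in the vehicle libraries and 36.5, 12.3 and 4.05 CPM in the ginkgetin libraries (-1.90 ± 0.65, with the block adjusted p = 0.04). It was not called with the 2-level block (adjusted p = 0.054), and its value was -2.82 without ginkgetin replicate 1 and -1.21 without ginkgetin replicate 3. Irf4 was at 9.93, 3.01 and 6.32 CPM against 20.9, 54.0 and 60.8 CPM (2.79 ± 0.47, with the block adjusted p = 0.008). Nr4a1 and Cx3cr1, of the non-classical monocyte list, had log2 fold changes of 0.07 and 0.21. Spn of the same list was called higher with the block (1.36 ± 0.31), against 1.14% of all genes. Of 8 genes of that list tested, 7 were higher, with a median of 0.42. No cell cycle gene was called of 5 tested (median -0.26). Of 5 Kupffer cell genes tested all were lower (median -1.09, beside -0.89 in T cells). Nr1h3 alone was called with the replicate block (against 1.5% of all genes in that direction) and none with the 2-level block. Genes that define Kupffer cells were low in members, with Clec4f at 5.22 to 24.5 CPM and Timd4 at 0 to 0.902 CPM.

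Of the heat shock and immediate-early genes, Hspa1a had the lowest p-value of all genes in the fit with the block. Hspa1a, the inducible chaperone (chromosome 17, 34969359 to 34972156), was at 1328, 951 and 808 CPM in the vehicle libraries and 110, 34.3 and 89.2 CPM in the ginkgetin libraries. Its log2 fold change was -3.75 ± 0.47 (adjusted p = 0.08, with the block 1.1e-04). Hspa1b (-2.74) and Jun (-1.90) were also called with the block, 3 of the 16 genes tested, against 1.5% of all genes in that direction. In T cells Hspa1a averaged 626 and 32.9 CPM, and the group difference in monocytes minus that in T cells did not pass the test (0.44 ± 0.25, edgeR interaction adjusted p = 0.56). Hspa1a and Hspa1b are near-identical copies whose reads can be split by the counting.

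By the rule for genes outside the lists, 16 genes with no overlap between groups and the lowest p-values are named; none was called without the block. Lower were Hspa1a, Lgmn, C5ar1, Acp5 (-2.61), Pgam1, Abi3 (-1.39), Jun and Basp1 (-2.79). Acp5, a lysosomal acid phosphatase, was at 87.1, 104 and 85.7 CPM against 20.9, 17.2 and 10.1 CPM. Higher were Flt1 (2.68), Kctd10 (1.24), Nfe2 (1.43), Socs6 (1.29), Mef2d (1.20), Clec4g (2.43), Il6st (1.30) and Rnf44 (1.41). All 16 were called with the block, and the no-overlap condition chose them. Nfe2, a myeloid and megakaryocyte transcription factor, was at 27.5, 18 and 25.7 CPM against 47.0, 58.9 and 85.1 CPM, and it averaged under 1 CPM in T cells.

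Markers of liver sinusoidal endothelium, summed over 8 listed genes, were higher in the ginkgetin members. Of these, 4 (Stab2, Clec4g, Ehd3 and Gpihbp1) passed the filter for low counts and were tested. They reached its level only in the ginkgetin libraries, with 15.7 CPM or more, against at most 13.1 CPM in any vehicle library. Their direction and median (3.08) were therefore largely fixed by the filter. The block called all 4 higher (1.14% of all genes were), which is a description and not a test. The 8 genes summed to 46.5, 37.1 and 30.7 CPM in the vehicle libraries and 115, 564 and 144 CPM in the ginkgetin libraries. In T cells the sums were 110, 160 and 103 CPM against 267, 806 and 292 CPM. In T cells Clec4g, Gpihbp1, Stab2 and Ehd3 differed by 2.42, 1.79, 2.63 and 1.43 on the log2 scale, and Flt1, outside the list, by 2.37. The group difference of Ehd3 was higher in monocytes than in T cells, by 2.10 ± 0.43 (edgeR interaction, adjusted p = 0.032). For the other 4 genes the interaction did not pass, with adjusted p from 0.26 (Stab2) to 0.95 (Clec4g). B and plasma cell genes summed to 34.8 to 1134 CPM against 93.9 to 1899 CPM, hepatocyte genes to 88 to 494 CPM against 15.7 to 424 CPM, and neutrophil genes to 154 to 941 CPM against 99.1 to 1470 CPM. T and NK cell genes summed to 19, 16 and 4.96 CPM in the vehicle libraries and 41.7, 58.9 and 58.8 CPM in the ginkgetin libraries, without overlap. Stellate cell genes summed to between 5.22 and 41.7 CPM, platelet and erythroid genes between 7.22 and 39.3 CPM, and dendritic cell genes between 41.1 and 218 CPM. No gene of the B and plasma cell (4 tested, median 1.39), hepatocyte (7, -0.76), neutrophil (6, 0.88) or dendritic cell list (2, 0.56) was called. S100a8 and S100a9, shared by neutrophils and monocytes, had values of 1.17 in both, which turned to -0.44 and -0.39 without ginkgetin replicate 2. Without that library Clec4g was 1.77, Stab2 3.68, Ehd3 2.13 and Gpihbp1 1.29, against 2.43, 4.59, 3.74 and 2.39 with it, and Ehd3 was 4.34 without vehicle replicate 2. The part of these transcripts in the results was not tested. An alternative added after seeing the data left out cells with 4 or more UMIs of T and NK, B and plasma, endothelial and stellate cell markers. Hepatocyte genes, Jchain, Mzb1 and Nkg7 did not count towards this limit, but did towards that of 2 UMIs. Neither limit used neutrophil, dendritic, platelet or erythroid genes. Without cells over the limit of 4, the share of classical monocytes differed by -4.11 percentage points and 0 genes were called without the block.

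**Figure D5:**
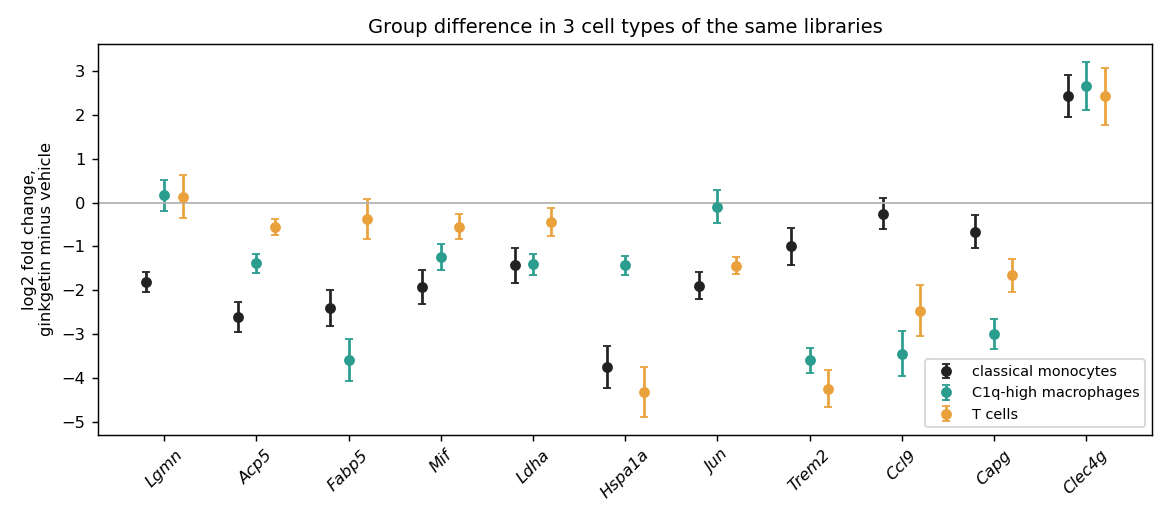
Log2 fold change (ginkgetin minus vehicle) of 11 genes in classical monocytes (black), C1q-high macrophages (green) and T cells (orange) of the same libraries; points are edgeR estimates and bars their SE. Lgmn lies below 0 in monocytes (-1.82) and near 0 in the others, Hspa1a is low in monocytes and T cells, and Clec4g is above 0 in all 3.

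The last comparison asked whether monocytes and C1q-high macrophages differed in their group difference. Their interaction in edgeR was past an adjusted p of 0.05 for 140 of 8808 genes (1.59%), 69 positive (0.783%) and 71 negative (0.806%). Positive values mean that the ginkgetin-minus-vehicle difference was higher in monocytes. The chemokine gene Ccl9 averaged 760 and 636 CPM in monocytes and 501 and 58.0 CPM in macrophages, a difference of 3.33 ± 0.30 (adjusted p = 1.9e-06). Anxa1, a phospholipid-binding protein that restrains inflammation, gave 3.39 ± 0.35, the actin-capping Capg 2.24 ± 0.26, Clec4b1 2.64 ± 0.38 and Trem2 2.47 ± 0.31. Trem2 averaged 173 and 82.9 CPM in monocytes and 1064 and 112 CPM in macrophages. In the other direction, Lgmn gave -2.09 ± 0.30, with macrophage means of 1925 and 2932 CPM. Hspa1a gave -2.45 ± 0.34, Hspa1b -2.03 ± 0.30, the stress-response gene Ier3 -1.95 ± 0.27 and Plbd1 -1.75 ± 0.22. C1q-high macrophages had medians of 7548.5 to 15935 UMIs in the vehicle and 2584 to 3720.5 in the ginkgetin libraries; the part of this depth gap in the interaction was not tested.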

How the data were processed

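Liver non-parenchymal cells of 3 vehicle and 3 ginkgetin libraries were compared, grouped by the treatment given in the labels. The authors deposited raw UMI counts per gene and cell with no normalization. The submitters' processing notes name GRCm38 and mm10, and the aligner is not given in the sources used here. Of 19349 gene names, 3199 had UMIs only in replicate 3 or only in replicates 1 and 2. These, the mitochondrial genes and the genes of the rule entered the fit and were left out of counts and names. The stated filter of 250 to 5000 UMIs was an alternative. Doublets were not removed. T cells held at least 2 UMIs of Cd3d, Cd3e, Cd3g and Trac together (Trac had UMIs in replicate 3 only) and under 3 of Lyz2, and patrolling monocytes at least 2 of Cd300e, Ace and Treml4 and at least 3 of Lyz2. C1q-high macrophages held at least 10 C1q UMIs and at most 1 of Chil3 and F13a1.

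Members' UMIs were summed per library and compared with edgeR 4.0.16 (R 4.3.3; TMM, filterByExpr, group only); CPM scales a gene's UMIs to the summed UMIs of the cells. DESeq2 1.42.0 and limma-voom (limma 3.58.1) were alternatives. Interactions of cell type and group had the library as a block; the one with T cells was added after seeing the data. Shares were compared with two-sided exact permutation tests. Deviations from the group means correlated at 0.229, 0.217 and 0.519 between same-numbered libraries, over 0.1 in every pair, and at 0.181 between vehicle replicate 2 and ginkgetin replicate 1. By the limit of 0.1 set for same-numbered pairs, the replicate number was taken as a pairing; this comes from the data, and the labels do not say what a number marks. On simulated data for the monocyte comparison (5754 genes, dispersion 0.13), 83 of 100 genes changed 4-fold and 11 of 100 changed 2-fold were called in the right direction, with 6 false calls over both. Here only genes of at least 50 CPM were changed, and a call needed an adjusted p under 0.05 without the fold limit. All genes had the same dispersion, and no replicate effect was simulated. These settings are simpler than the data, so the counts do not give the power of the real comparison.

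The members and the 22 gene lists were chosen with earlier results of these data known. Named genes were fixed monocyte and macrophage genes, the 8 per direction with the lowest p among those of at least 50 CPM and no overlap (none being called), up to 4 per list, and 5 per direction for each interaction. Plots were drawn with matplotlib 3.10.9. Some genes that the rule names are not reported here.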

Additional observations from a re-analysis of the deposited data

Results flagged for a closer look

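The genes below had a group difference that differed between cell types by the interaction test in edgeR. Between classical monocytes and C1q-high macrophages, on the log2 scale, the values were 3.33 for Ccl9, 3.39 for Anxa1, 2.24 for Capg, 2.47 for Trem2 and 2.64 for Clec4b1. They were -1.75 for Plbd1, -2.45 for Hspa1a, -1.95 for Ier3, -2.09 for Lgmn and -2.03 for Hspa1b.

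Between classical monocytes and T cells, a comparison added after seeing the data, they were 3.58 for Ccl5, 4.36 for Hbb-bs, 1.34 for Klf6, 1.32 for Itga4 and 1.35 for Il10ra. Ccl5 averaged 16097 and 9128 CPM in T cells. Hbb-bs is a haemoglobin gene, and platelet and erythroid genes varied widely in T cells. They summed to 16.5, 796 and 806 CPM in vehicle T cells and 116, 31.5 and 59.1 CPM in ginkgetin T cells. The part of such transcripts in the Hbb-bs value was not tested. In the other direction the values were -2.0 for Fabp5, -1.52 for Mif, -2.21 for Acp5, -1.13 for Ldha and -2.16 for Lyl1. Mif, a cytokine, was at 322, 373 and 255 CPM in vehicle and 115, 78.5 and 56.7 CPM in ginkgetin monocytes.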

How the results depend on the processing

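The share of classical monocytes was lower in the ginkgetin group under every alternative run, between -4.30 and -3.76 points with single libraries left out, and with the replicate block (sign flips of 3 pairs) p was 0.25, the smallest possible. The number of genes called depended on the processing. It was 0 without the block, 157 with the replicate block, 134 with the barcode set block, 81 with DESeq2, 29 with no gene filter, 15 with genes of 1 barcode set left out, 1 with no cell filter, and 0 with each library left out. The barcode set is replicate 3 against replicates 1 and 2, named for the cell barcodes these libraries shared; gene names differ along the same split. The interaction with C1q-high macrophages called 140 genes, 58 in the range of 250 to 5000 UMIs, 221 without cells of 4 marker UMIs of other types, 320 with no gene filter and 50 in replicates 1 and 2 only. Leaving out a library gave 68 (vehicle replicate 1) to 216 (ginkgetin replicate 1). The interaction with T cells called 58 genes, 49 of them and no other with T cells chosen without Trac, 231 with no gene filter, and 30 (without vehicle replicate 2) to 140 (without ginkgetin replicate 2). The causes were not tested.

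Some log2 fold changes of named genes, none of them called, changed sign. In the UMI range these were Ly6c2 0.23, Il1b 0.25, Nr4a1 -0.24, Itgal -0.14 and Cxcl10 0.19. Without cells of 2 marker UMIs of other types they were Ly6c2 0.18, Cx3cr1 -0.00989, H2-Aa 0.20, Cd74 0.77, Isg15 0.40, H2-Eb1 0.66 and H2-Ab1 0.64, and at 4 such UMIs Ly6c2 0.0292 and Cd209a -0.00899. In replicates 1 and 2 only they were Ly6c2 0.17, Il1b 0.54, Cd74 0.19, Hif1a 0.078, Cxcl2 0.0645, Clec10a -0.0516, Mup3 0.00155, Alb 0.70, Apoa1 0.84 and Fabp1 0.35. With thinned cells they were Nr4a1 -0.055 and Rsad2 -0.14, with no gene filter Nr4a1 -0.10, with no cell filter Cd74 0.021 and with C1q at most 1 UMI Cd74 0.0041. With single libraries left out, Ly6c2 ran from -0.43 to 0.15, Il1b from -0.80 to 0.36, Cx3cr1 from -0.11 to 0.39, Nr4a1 from -0.10 to 0.24 and Cd74 from -0.56 to 0.24. Isg15 ran from -0.94 to 0.19, S100a8 from -0.44 to 2.99, S100a9 from -0.39 to 4.18, Hif1a from -0.39 to 0.0046, Pcna from -0.0246 to 0.33 and Clec10a from -0.071 to 0.77. With 36 to 77 ginkgetin members per library, low genes rest on few UMIs.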

Other observations

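Single genes in no list, picked after their values were seen, included some known from sterol and lipid handling, called in both directions with the replicate block. Insig1 (1.43), Srebf2 (1.75) and Stard4 (2.28), with log2 fold changes from that fit, were higher. The sterol exporter gene Abcg1 was lower (-1.27, adjusted p = 0.017), at 91.6, 87.1 and 108 CPM in the vehicle members and 41.7, 31.9 and 46.6 CPM in the ginkgetin members. The lipid droplet coat gene Plin2 was at 288, 324 and 326 CPM against 93.9, 27.0 and 156 CPM. In T cells the log2 fold changes of Insig1, Srebf2, Stard4, Abcg1 and Plin2 were 1.51, 1.5, 0.81, -0.28 and -1.41. No test of these genes as a group was made.

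Members with at least 2 UMIs of the granule genes Elane, Mpo and Prtn3, which mark early myeloid cells, were 5.08%, 4.61% and 9.44% of vehicle members and 0%, 0% and 4.35% of ginkgetin members. With 36, 77 and 46 ginkgetin members, those shares rest on 0, 0 and 2 cells.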
